A study of Homo sapiens with 6 samples.

Results

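The 49 genes described here encode the ligands, receptors, SMAD proteins, antagonists and target genes of transforming growth factor beta (TGF-beta), activin and bone morphogenetic protein (BMP) signalling. They were chosen by symbol, with earlier results of these data known. Each of the 49 symbols matched 1 of the 38900 Ensembl gene IDs in the deposited table. RNA was measured by polyA RNA sequencing in 6 libraries of hTERT RPE1 cells, a telomerase-immortalised human line from the retinal pigment epithelium. All cells were held at full confluency for 5 days to bring them to quiescence and then received fresh medium for 6 hours. For 3 libraries that medium held 100 nM combretastatin A4 (CA4), a small molecule that binds tubulin and takes microtubules apart, and for the 3 control libraries it held 0.1% DMSO, the solvent. All 6 libraries come from a single cell line, and the labels do not say whether the replicates are separate cultures, so the p-values below measure only the spread between these samples, which may be technical.

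Ligands of this family are secreted dimers that bring together type I and type II receptor kinases. TGF-beta and activin receptors then phosphorylate SMAD2 and SMAD3, and BMP receptors phosphorylate SMAD1, SMAD5 and SMAD9, after which these proteins enter the nucleus with SMAD4. Secreted antagonists such as gremlin, noggin and follistatin hold ligands away from the receptors, inhibitory SMADs act as feedback inside the cell, and the ID genes are classical targets of the BMP branch. In pigment epithelium, TGF-beta and activin are known for their part in the change from an epithelial to a mesenchymal state.

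The libraries held between 19524936 and 22538004 reads, recovered as whole numbers from the normalized values, and 1 read was worth 0.935 to 1.12 normalized counts. Of the markers of differentiated pigment epithelium, OTX2 and MITF were read at 226 to 1085 normalized counts, RPE65 at 13.5 to 40.8, and TTR was listed at 0 in all 6 libraries. The summed level of the 12 pigment epithelium markers was 1163 to 1956 in DMSO and 666 to 1070 in CA4, without overlap of the sums. Most of the sum was MITF and OTX2, followed by BEST1 at 42.5 to 99.7. OTX2 was the 1 marker of this list past the threshold (limma adjusted p = 0.0158), MITF overlapped between groups, and the means of PMEL (18.7 against 15.6) and SERPINF1 (16.8 against 14.6) were higher in CA4 than in DMSO without passing. The 4 endothelial markers summed to 1084 to 1575 in DMSO and to 1406, 1754 and 3414 in CA4, the highest value being that of CA4 replicate 3, and none of the 4 passed. The 4 leukocyte markers summed to 541 to 940, nearly all of it CD68, with PTPRC at 2.80 to 10.6 and CD3E at 0. The 5 epithelial markers, nearly all KRT8, KRT18 and CDH2, summed to 34900 to 38343 in DMSO and 41215 to 47012 in CA4, and EPCAM was at 0 to 4.46. CDH2 (N-cadherin), also used as a mesenchymal marker, was the 1 called gene of this list (limma adjusted p = 0.0452), KRT8 had a log2 fold change of 0.09, and CDH1 (E-cadherin) was at 0.935 to 32.3. All CA4 libraries were above all DMSO libraries for KRT18, which did not pass (log2 fold change 0.46, SE 0.13, limma adjusted p = 0.0849). None of the 7 mesenchymal markers passed, and their sums overlapped between groups. Retinal neuron markers summed to 94.4 to 398 normalized counts. The 4 cell cycle markers summed to 9093 in DMSO replicate 1 and 7475 in CA4 replicate 1, against 2258 to 4372 in the other 4 libraries. Along the first principal component of all tested genes, the control nearest to the CA4 libraries was DMSO replicate 1. In bulk RNA, fewer cells of a type and less RNA per cell cannot be told apart.

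TGFB2, INHBA, INHBB, TGFBR1, GREM1 and FSTL3 were higher in CA4, and BMP4, ID1 and ID2 were lower. These 9 are the members that passed limma's moderated test on log2(normalized count + 1) at an adjusted p under 0.05, among the 47 members that averaged 10 or more normalized counts. The share was 19.1% of the tested members (9 of 47, 6 higher and 3 lower), where 4.94% of all 13928 tested genes passed (688 genes, 2.97% higher and 1.97% lower). Because the members were chosen with earlier results of these data known, their shares are a description and not a test. The 3 CA4 libraries lay wholly above the 3 DMSO libraries in 7 members and wholly below in 10, together 36.2% of the tested members against 27.7% of all tested genes. At an unadjusted p under 0.05 there were 18 members and 3197 of all tested genes. The median log2 fold change was -0.15 over the 47 members and -0.01 over all tested genes. GDF5, at 0 to 5.70 normalized counts, and ID4, with no read in any library, were below the minimum mean and left out of the test, and a value of 0 allows up to 3 reads, here 2.80 to 3.37 normalized counts by library.

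All 9 kept their direction in each of the 16 alternative analyses, but FSTL3 is the 1 member that passed in all of them. The other 8 lost their call in at least 4 of the 6 fits that leave out 1 library, with limma adjusted p-values that reached 0.0839 for INHBB, 0.0914 for BMP4, 0.0847 for GREM1, 0.0836 for ID1, 0.111 for ID2, 0.102 for TGFBR1, 0.121 for INHBA and 0.144 for TGFB2. Leaving out DMSO replicate 1 gave 9 called members, where 7.14% of all genes were called. Leaving out DMSO replicate 2 gave 1 member (0.718% of all genes), and DMSO replicate 3 gave 2 (0.582%). For CA4 the numbers were 3 when replicate 1 was left out (1.12%), 5 for replicate 2 (3.61%) and 1 for replicate 3 (1.08%). Without DMSO replicate 1, TGFB2 and INHBA dropped out (limma adjusted p = 0.0643 and 0.0586) and SMAD6 and SMAD9 came in (0.0248 and 0.0286). Scaling every library to the same total shifted the median of all tested genes by -0.10 on the log2 scale and gave 5 higher and 6 lower members (5.76% of all genes called), and the share of higher calls over all genes went from 60.0% to 34.8%. Quantile normalization gave 3 higher and 4 lower members (4.37% of all genes called), with TGFB2, INHBA and TGFBR1 no longer past the threshold (limma adjusted p = 0.0746, 0.0736 and 0.0510).

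**Figure D1:**
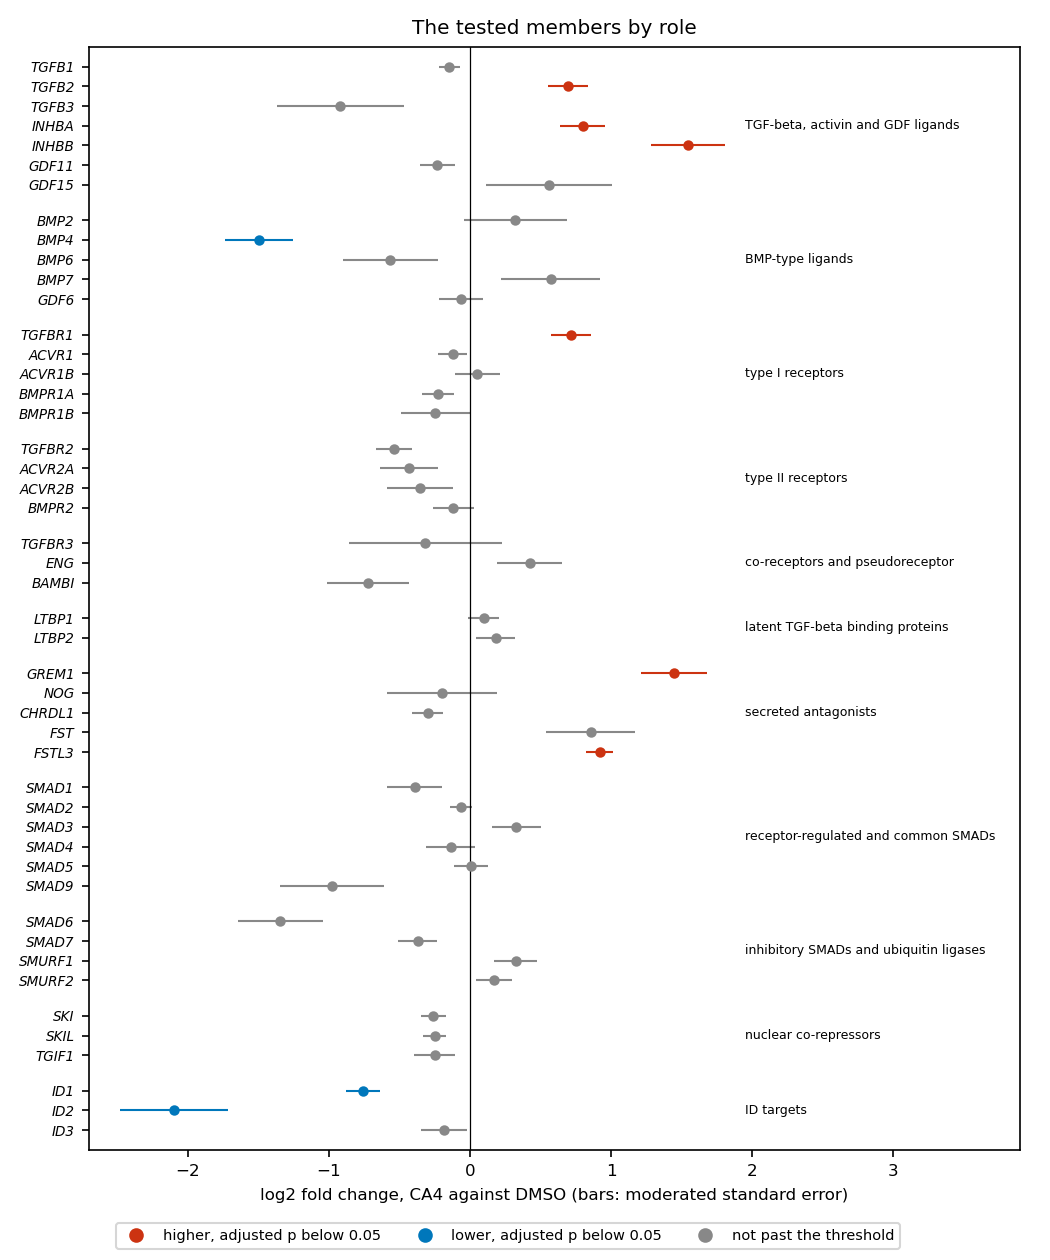
Log2 fold change of the 47 tested members, CA4 against DMSO, on the log2(normalized count + 1) scale, grouped by role. Points are limma estimates over 3 libraries a group, bars are moderated standard errors, and red and blue mark the 6 higher and 3 lower members past the threshold.

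Of the 7 ligands of the TGF-beta, activin and GDF branch, 3 rose, none fell and 4 did not pass. TGFB2 encodes a TGF-beta isoform and lies at chr1:218346235-218444619 (GRCh38, plus strand; all gene positions are from GENCODE release 29). Values are given in the order of replicates 1, 2 and 3. TGFB2 read 11343, 13926 and 12007 normalized counts in DMSO and 16852, 24348 and 19643 in CA4. Every CA4 library was above every DMSO library, and CA4 replicate 2 was the highest. The log2 fold change was 0.70 (SE 0.14, limma adjusted p = 0.0405), a ratio of means of 1.63. Of its exon bases, 26.6% are shared with TGFB2-OT1, a transcript on the same strand that has no row in the table. TGFB1, the isoform best known from platelets and wound repair, read 6931, 7013 and 6985 in DMSO and 5996, 6245 and 6697 in CA4. These groups did not overlap, and the DMSO values were close together, but the log2 fold change of -0.15 (SE 0.07) did not pass (limma adjusted p = 0.281). TGFB3, the isoform with the fewest reads, had 48.3, 68.2 and 78.8 in DMSO and 19.3, 65.1 and 28.98 in CA4, and its groups overlapped.

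INHBA and INHBB encode the beta A and beta B subunits whose dimers are the activins. INHBA (chr7:41667168-41705834, minus strand) read 10927, 10030 and 15281 normalized counts in DMSO and 20125, 19158 and 22902 in CA4. All CA4 values were higher, and replicate 3 was the highest library in each group. Its log2 fold change was 0.80 (SE 0.16, limma adjusted p = 0.0356). INHBB (chr2:120346143-120351808, plus strand) read 50.2, 61.7 and 73.1 in DMSO and 138, 172 and 247 in CA4. Its lowest CA4 library was above the highest DMSO library by more than the whole range within DMSO. The log2 fold change of 1.55 (SE 0.26, limma's adjusted p = 0.0217) was the highest of any member, from a low level. GDF11, an activin-like ligand, had a log2 fold change of -0.23 (SE 0.12), and GDF15, a stress-induced cytokine of the family, one of 0.56 (SE 0.45). GDF15 ranged from 26.6 to 75.3 in DMSO and from 41.6 to 88.1 in CA4, so its groups overlapped.

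Of the 6 BMP-type ligands 5 were tested, 1 fell and none rose. BMP4, a ligand of the BMP branch (chr14:53949736-53958761, minus strand), read 601, 846 and 873 normalized counts in DMSO and 224, 384 and 227 in CA4. Its highest CA4 library stood below the lowest DMSO library, and DMSO replicate 1 was the lowest of its group. Its log2 fold change was -1.50 (SE 0.24, limma adjusted p = 0.0199), with a ratio of means of 0.36. BMP6, another ligand of that branch, read 423, 831 and 756 in DMSO and 295, 425 and 655 in CA4. BMP6 groups overlapped, and its log2 fold change of -0.56 (SE 0.34) did not pass (limma adjusted p = 0.374). BMP2 and BMP7 were read at 40.8 to 108 and at 19.3 to 41.6, with log2 fold changes of 0.32 (SE 0.37) and 0.57 (SE 0.35). GDF6, a BMP-type ligand known from eye and skeletal development, was read at 8999 to 12803 with a log2 fold change of -0.06 (SE 0.15).

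Per kilobase of principal transcript, the ligands fell into a high and a low tier. In DMSO the 4 highest were GDF6 at 2936 ± 380 normalized counts per kb, TGFB1 at 2519 ± 14.9, TGFB2 at 2501 ± 270 and INHBA at 1992 ± 463 (SD, n = 3 each). Neighbours in the order of these 4 overlapped in their libraries. BMP4 followed at 403 ± 78.2 and BMP6 at 241 ± 78.1, and the other tested ligands lay at 75.4 or below, down to BMP7 at 6.31 ± 2.53. In CA4 the order at the top was TGFB2 at 4081 ± 762, INHBA at 3418 ± 321, GDF6 at 2829 ± 552 and TGFB1 at 2280 ± 128. INHBB had moved above TGFB3 and GDF15 by its mean, from 19.3 ± 3.57 to 58.0 ± 17.5 normalized counts per kb. These levels take the longest principal transcript of each gene as its length, which understates a gene that mainly uses a shorter one.

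**Figure D2:**
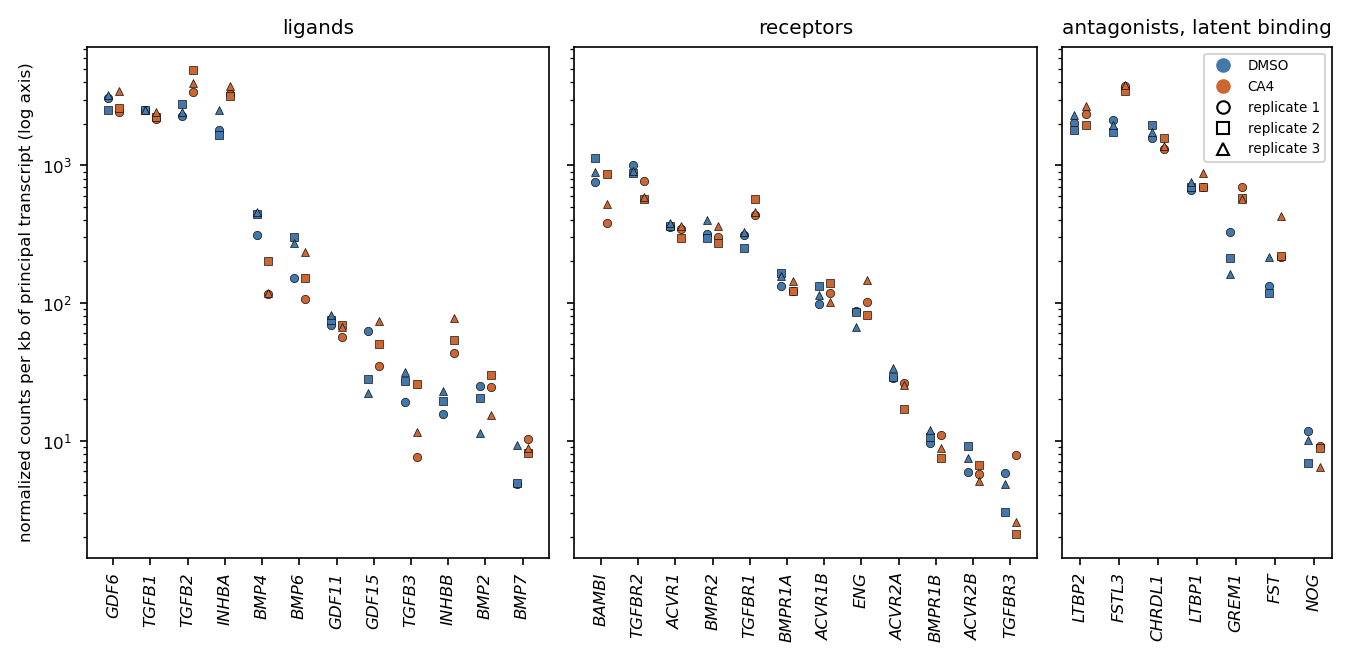
Normalized counts per kb of principal transcript (log axis) for the tested ligands, receptors, and antagonists with latent binding proteins, 1 point per library, ordered by the DMSO mean. GDF6, TGFB1, TGFB2 and INHBA stand apart from the other ligands in both groups.

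Among the 5 type I receptors, the kinases that phosphorylate SMADs, 1 rose and none fell. TGFBR1, the type I receptor of TGF-beta (chr9:99104038-99154192, plus strand), read 2015, 1627 and 2137 normalized counts in DMSO and 2820, 3708 and 2989 in CA4. No CA4 library reached down to the DMSO range, and the log2 fold change was 0.72 (SE 0.14, limma adjusted p = 0.0339). The activin receptor ACVR1B, at 451 to 642, had a log2 fold change of 0.05 (SE 0.16). The BMP receptors ACVR1, BMPR1A and BMPR1B had log2 fold changes of -0.12 (SE 0.10), -0.23 (SE 0.11) and -0.25 (SE 0.24).

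All 4 type II receptors, the partners that activate type I receptors, had fold changes below 0, and none passed. TGFBR2, the type II receptor of TGF-beta (chr3:30606502-30694142, plus strand), read 4627, 4055 and 4171 in DMSO and 3562, 2629 and 2730 in CA4. Its groups did not overlap, in the direction opposite to TGFBR1. The log2 fold change of -0.54 (SE 0.13) came close to the threshold (limma adjusted p = 0.0558). TGFBR2 passed with every library scaled to the same total (-0.64, limma adjusted p = 0.0392) and with quantile normalization (-0.61, limma adjusted p = 0.0371). It also passed in DESeq2 (adjusted p = 0.0045), with a replicate block (limma adjusted p = 0.0057) and with a mean of at least 50 (limma adjusted p = 0.0491). Without CA4 replicate 1 it passed as well (-0.67, limma adjusted p = 0.0354). TGFBR2 did not pass in the other 5 fits without a library (limma adjusted p up to 0.165), nor in 5 of the 10 alternatives with all libraries, among them edgeR and limma without the variance trend (adjusted p = 0.123). The activin receptor ACVR2A read 164, 166 and 192 in DMSO and 150, 97.6 and 145 in CA4, which did not overlap either, with a log2 fold change of -0.43 and an SE of 0.21 (limma's adjusted p = 0.263). ACVR2B and BMPR2 had log2 fold changes of -0.35 (SE 0.23) and -0.12 (SE 0.14) with overlapping groups. Per kb of principal transcript, TGFBR2 was at 927 ± 65.5 in DMSO and 644 ± 111 in CA4, and TGFBR1 at 296 ± 40.9 and 487 ± 72.4 (SD, n = 3 each).

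None of the 3 co-receptors and pseudoreceptors passed. BAMBI, a receptor-like protein without a kinase that dampens signalling, read 1426, 2131 and 1687 in DMSO and 711, 1619 and 990 in CA4. CA4 replicate 2 lay inside the DMSO range, and the log2 fold change was -0.72 (SE 0.29, limma adjusted p = 0.189). ENG (endoglin), a co-receptor of endothelial cells in particular, read 268, 262 and 206 in DMSO and 310, 250 and 453 in CA4, with a log2 fold change of 0.42 and an SE of 0.23 (limma's adjusted p = 0.322). CA4 replicate 3, the highest library for ENG, was also the one with the highest endothelial markers, where VWF read 1732 against 509 to 805 in the other 5 libraries and PECAM1 916 against 284 to 457. The part of these cells or transcripts in the ENG value was not tested. TGFBR3 (betaglycan), which presents TGF-beta 2 to its receptors, was read at 13.5 to 51.2 with overlapping groups.

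Of the 5 secreted antagonists, 2 rose and none fell. FSTL3, a follistatin-like protein that binds activins (chr19:676365-683399, plus strand), read 5430, 4418 and 4976 normalized counts in DMSO and 9505, 8788 and 9689 in CA4. Both groups were tight, and the gap between them was wider than either. Its log2 fold change was 0.92 (SE 0.09, limma adjusted p = 0.0057), the smallest p of the members, and its adjusted p stayed between 0.0047 and 0.0402 in the 6 fits without a library. FST (follistatin), the related activin antagonist, read 337, 299 and 541 in DMSO and 544, 557 and 1078 in CA4. FST groups touched without overlapping, at 541 and 544, and the log2 fold change of 0.86 (SE 0.32) did not pass (limma adjusted p = 0.162). With all libraries FST passed in 2 of the 10 alternatives, DESeq2 (0.89, adjusted p = 0.0423) and limma with a replicate block (adjusted p = 0.0037). It passed in 0 of the 6 fits without a library.

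GREM1 (gremlin 1), an antagonist of BMP2 and BMP4 (chr15:32717974-32745107, plus strand), read 4816, 3081 and 2370 in DMSO and 10133, 8470 and 8328 in CA4. Its lowest CA4 library was far above the highest DMSO library, and replicate 1 was the highest in each group. The log2 fold change was 1.45 (SE 0.24, limma adjusted p = 0.0199), a ratio of means of 2.62. CHRDL1 (chordin-like 1), also a BMP antagonist, read 3804, 4730 and 4189 in DMSO and 3161, 3831 and 3340 in CA4. Its groups overlapped slightly and its log2 fold change was -0.30 (SE 0.11, limma adjusted p = 0.164). NOG (noggin), at 12.3 to 22.2, had a log2 fold change of -0.20 (SE 0.39). Per kb of principal transcript, FSTL3 at 3669 ± 187 was in CA4 the highest of the antagonists, and GREM1 moved from 234 ± 86.2 to 615 ± 68.7 (SD, n = 3 each). LTBP1 and LTBP2, which tether latent TGF-beta to the matrix or, for LTBP2, belong to the same matrix protein family, had log2 fold changes of 0.10 (SE 0.11) and 0.18 (SE 0.14), and the sign of each changed with quantile normalization.

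**Figure D3:**
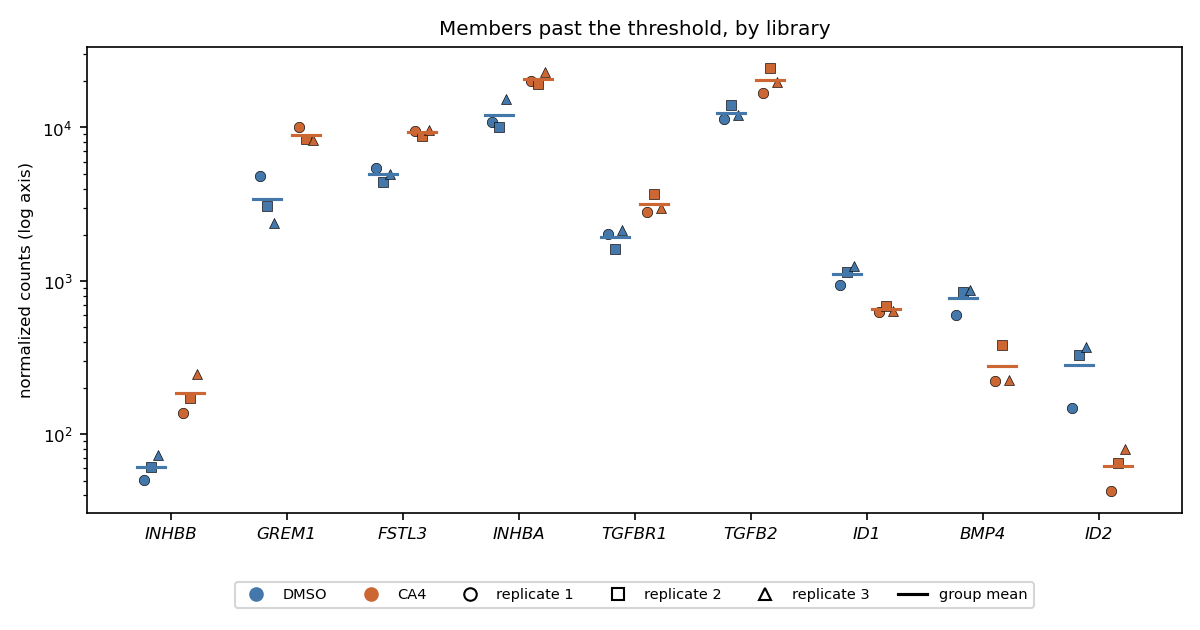
Normalized counts (log axis) in each of the 6 libraries for the 9 members past the threshold, ordered by log2 fold change, with the group means as lines. The DMSO and CA4 points do not overlap in any of the 9, and FSTL3 has tight groups while ID2 in DMSO ranges from 150 to 372.

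None of the 6 receptor-regulated and common SMADs passed, and none had groups without overlap. SMAD2 and SMAD3 carry the TGF-beta and activin signal. SMAD2 read 1497, 1530 and 1587 in DMSO and 1514, 1461 and 1444 in CA4, a log2 fold change of -0.06 (SE 0.08). SMAD3 read 2574, 2450 and 1685 in DMSO and 2701, 3153 and 2478 in CA4, a log2 fold change of 0.33 (SE 0.17, limma's adjusted p = 0.306). SMAD4, the shared partner, had a log2 fold change of -0.14 (SE 0.17). In the BMP branch, SMAD5 had one of 0.01 (SE 0.12) and SMAD1 one of -0.39 (SE 0.20). SMAD9 read 221, 519 and 522 in DMSO and 139, 240 and 233 in CA4. DMSO replicate 1 fell among the CA4 values, and the log2 fold change of -0.98 (SE 0.37) did not pass with that library (limma adjusted p = 0.169) and passed without it (-1.39, limma adjusted p = 0.0286). With all libraries SMAD9 passed in 2 of the 10 alternatives, DESeq2 (-1.05, adjusted p = 0.0282) and limma with a replicate block (adjusted p = 0.0072). Without 1 library it passed in 1 of 6 fits.

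The inhibitory SMADs are themselves induced by the pathway. SMAD6, which acts mainly on BMP signalling (chr15:66702228-66782848, plus strand), read 299, 567 and 475 normalized counts in DMSO and 126, 241 and 160 in CA4. All CA4 libraries were below all DMSO libraries, and at -1.34 (log2 fold change, SE 0.30) SMAD6 was just outside the threshold (limma adjusted p = 0.0501). That p ran from 0.0248 to 0.168 over the fits without a library and from 3.95e-04 in DESeq2 to 0.106 without the variance trend over the others. SMAD7, which acts on both branches, read 2348, 2360 and 2284 in DMSO and 1695, 1537 and 2249 in CA4. CA4 replicate 3 lay just under the DMSO range and the other CA4 libraries well under it, with a log2 fold change of -0.37 and an SE of 0.14 (limma's adjusted p = 0.168). The ubiquitin ligases SMURF1 and SMURF2, which mark SMADs and receptors for breakdown, had log2 fold changes of 0.32 (SE 0.15) and 0.17 (SE 0.13). Of the exon bases of SMURF1, 11.7% lie in TRRAP on the opposite strand.

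The 3 nuclear co-repressors, which hold SMAD target genes down, had nearly equal fold changes. SKI read 2700, 2943 and 2961 in DMSO and 2221, 2589 and 2391 in CA4. SKIL, which is also a TGF-beta target, read 2756, 2866 and 2907 in DMSO and 2266, 2560 and 2347 in CA4. Both had groups without overlap, and their log2 fold changes of -0.26 (SE 0.09) and -0.25 (SE 0.08) did not pass (limma adjusted p = 0.134 and 0.112). With all libraries SKIL passed in 2 of the 10 alternatives, the same total per library (-0.35, limma adjusted p = 0.0483) and a replicate block (limma adjusted p = 0.0430). SKI passed in 1 of these 10, the replicate block (limma adjusted p = 0.0364). Both passed in 0 of the 6 fits without a library. TGIF1 had a log2 fold change of -0.25 (SE 0.15) with overlapping groups.

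The ID genes encode helix-loop-helix proteins that lack a DNA-binding part and block other factors of that class. Of the 3 tested, 2 fell. ID1 (chr20:31605283-31606515, plus strand) read 943, 1146 and 1245 normalized counts in DMSO and 632, 686 and 638 in CA4. Its CA4 libraries were close together and all below DMSO, with a log2 fold change of -0.76 and an SE of 0.12 (limma's adjusted p = 0.0192). ID2 (chr2:8678845-8684453, plus strand) read 150, 327 and 372 in DMSO and 42.5, 65.1 and 80.2 in CA4. Even the low DMSO replicate 1 was above every CA4 library. Its log2 fold change of -2.10 (SE 0.38, limma's adjusted p = 0.0275) was the lowest of any member, and it was -2.51 without DMSO replicate 1 (limma adjusted p = 0.0087). ID2 did not pass when any other library was left out (-2.30 to -1.85, limma adjusted p from 0.0603 to 0.111). ID3 read 3650, 5401 and 4821 in DMSO and 3441, 4420 and 4267 in CA4, with overlapping groups and a log2 fold change of -0.18 (SE 0.16). ID3 remained the highest of the ID genes per kb of principal transcript, at 3696 ± 713 in DMSO and 3231 ± 421 in CA4, against 1118 ± 155 and 656 ± 29.6 for ID1 and 139 ± 57.7 and 30.7 ± 9.3 for ID2 (SD, n = 3 each).

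Some genes of the BMP branch had their lowest value in replicate 1 of both groups. Among BMP4, ID1, ID2, ID3, SMAD6, SMAD7, SMAD9 and ATOH8, a further BMP target, 7 of the 8 had their lowest DMSO value in replicate 1 and 7 of the 8 had their lowest CA4 value in replicate 1. This group was put together after the values were seen, so the counts are a description. The share of all tested genes that were lowest in replicate 1 was not counted. In CA4 the lead was slight for BMP4 (0.290 against 0.294 in replicate 3, relative to the DMSO mean) and ID1 (0.569 against 0.574). BMP6, SMAD1 and BAMBI were also lowest in replicate 1 of both groups. Other genes of the branch went differently, with BMP2 highest in DMSO replicate 1 (89.8, 73.9 and 40.8 normalized counts) and SMAD5 and GDF6 lowest in DMSO replicate 2. Relative to the DMSO mean, DMSO replicate 1 stood at 0.53 for ID2, 0.53 for SMAD9, 0.63 for ATOH8 and 0.67 for SMAD6, and CA4 replicate 1 at 0.15, 0.33, 0.17 and 0.28. SMAD7 was the exception in both groups, with DMSO values between 0.98 and 1.01. Replicate 1 was also the one with the highest cell cycle markers in each group, and the sum of the pigment epithelium markers, carried by MITF and OTX2, was lowest in replicate 1 of each group. RPE65 and PMEL, in contrast, had their lowest DMSO value in replicate 2 and SERPINF1 in replicate 3. The part of either in the levels of BMP genes was not tested.

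**Figure D4:**
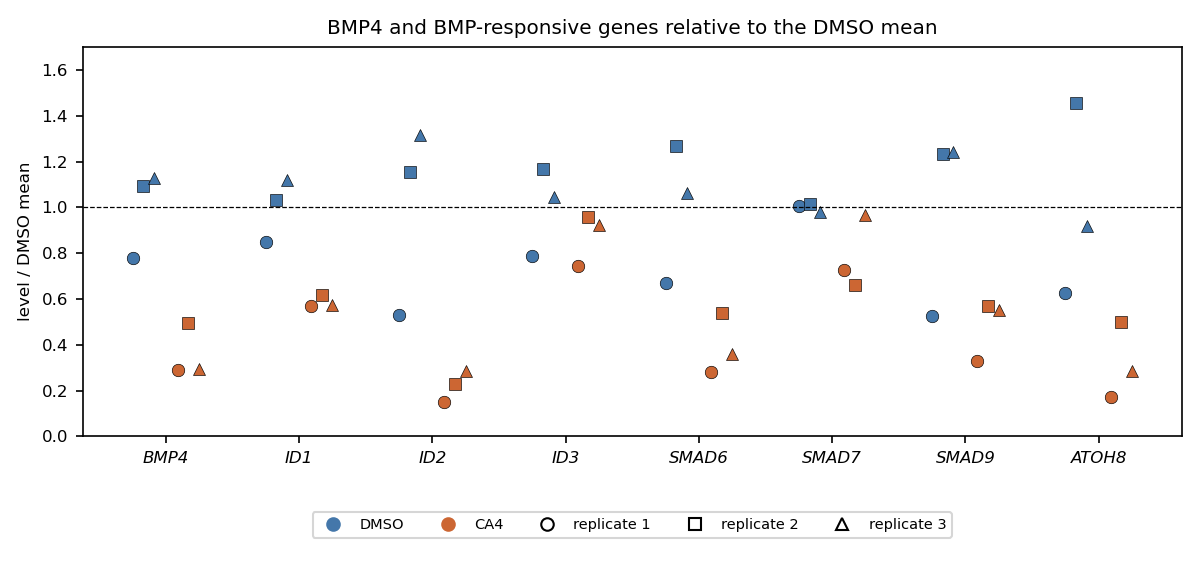
Level of BMP4 and 7 BMP-responsive genes in each library divided by the mean of the 3 DMSO libraries, with circles, squares and triangles for replicates 1, 2 and 3. Replicate 1 is the lowest library of its group in 7 of 8 genes in DMSO and in 7 of 8 in CA4, and for ID1, ID2, BMP4, SMAD6, SMAD7 and ATOH8 all CA4 points lie below all DMSO points. The 8 genes were put together after the values were seen.

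Sequences upstream of the RefSeq gene starts (GRCh38.p14) were available for 44 of the 49 members. In the 250 bases before each start, both strands were searched for the SMAD palindrome GTCTAGAC, the short SMAD site CAGAC, the BMP SMAD element GGCGCC, the AP-1 site TGANTCA, the TEAD site GGAATG, the cyclic AMP response element TGACGTCA and the serum response element. CAGAC was in 38.6% of the member windows and 37.8% of all 27305 windows, TGANTCA in 4.55% and 6.6%, and GGAATG in 15.9% and 11.9%. GGCGCC was in 29.5% of the member windows and 16.1% of all, and the member windows were richer in G and C, with a median of 69.0% against 58.0%. TGACGTCA occurred in 2 member windows, those of LTBP1 and SKIL, 4.55% against 1.77% of all. None of these motifs is part of another. A match is only a run of letters, and a window without one says nothing of sites elsewhere.

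The rarest matches fell on FSTL3 and SMAD6. FSTL3 was the 1 member with a match to the serum response element pattern (2.27% of the member windows and 1.14% of all), 22 to 31 bases before its start. It also held GGCGCC. SMAD6 was the 1 member with GTCTAGAC (2.27% of the member windows and 0.176% of all), 5 to 12 bases before its start. ID1 held none of the 7 motifs in this window. The windows below are on the plus strand and are shown as the examples of these 3 cases, FSTL3 at chr19:676142-676391, SMAD6 at chr15:66701986-66702235 and ID1 at chr20:31605039-31605288, with matches in capitals. Their last 27, 8 and 6 bases lie in exons of GENCODE 29, whose starts are a little earlier than those of RefSeq.
FSTL3: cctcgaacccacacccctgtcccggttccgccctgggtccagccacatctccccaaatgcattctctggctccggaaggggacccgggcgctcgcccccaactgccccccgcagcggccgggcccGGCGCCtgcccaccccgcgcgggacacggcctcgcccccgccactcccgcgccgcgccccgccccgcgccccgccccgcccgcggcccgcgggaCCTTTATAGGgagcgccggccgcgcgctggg
SMAD6: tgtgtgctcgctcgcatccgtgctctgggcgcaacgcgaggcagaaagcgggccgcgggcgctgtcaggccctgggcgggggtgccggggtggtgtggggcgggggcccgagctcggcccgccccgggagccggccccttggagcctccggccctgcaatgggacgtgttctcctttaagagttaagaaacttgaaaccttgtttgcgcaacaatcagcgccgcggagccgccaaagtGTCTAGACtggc
ID1: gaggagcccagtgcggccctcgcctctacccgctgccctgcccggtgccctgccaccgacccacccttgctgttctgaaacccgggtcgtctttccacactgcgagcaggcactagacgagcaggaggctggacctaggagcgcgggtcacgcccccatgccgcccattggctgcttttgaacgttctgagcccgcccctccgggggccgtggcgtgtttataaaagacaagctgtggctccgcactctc

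Beyond the members, a second list held 112 further genes of the pathway, of which 109 had a row and 77 were tested. Of these, 8 were higher and 3 lower, 14.3% against 4.94% of all tested genes, with a median log2 fold change of 0.04. This list was also chosen with earlier results of these data known, so its shares are a description. No further ligand, receptor or extracellular regulator passed, and 16 of the 19 further ligands with a row, among them NODAL, MSTN and GDF2, were below the minimum mean. NRP1, a co-receptor that binds TGF-beta among other ligands, read 9386, 10367 and 8025 in DMSO and 5604, 7160 and 5171 in CA4, and just missed the threshold (log2 fold change -0.64, SE 0.14, limma adjusted p = 0.0503). NRP1 passed in 6 of the 10 alternatives with all libraries and in 1 of the 6 fits without a library (limma adjusted p up to 0.165 in those 6). ACVRL1, a type I receptor of endothelial cells in particular, overlapped between groups and was highest in CA4 replicate 3, at 110, where the endothelial markers were highest too.

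Among 27 tested intracellular regulators, 2 rose, or 7.41% where 4.94% of all tested genes passed, a share near the background. DAB2, an adaptor that links TGF-beta receptors to SMADs, read 3104, 3201 and 3196 in DMSO and 4594, 4574 and 4259 in CA4, with a log2 fold change of 0.50 and an SE of 0.07 (limma's adjusted p = 0.0156). DAB2 did not pass without DMSO replicate 2, DMSO replicate 3 or CA4 replicate 1 (limma adjusted p up to 0.0698), nor without the variance trend (0.0638). USP11, a deubiquitinase that acts on TGF-beta receptors, rose by 0.40 (SE 0.09, limma adjusted p = 0.0483), a call that held in 1 of the 6 fits without a library and in 4 of the 10 alternatives with all of them.

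Target genes moved both ways, 6 higher and 3 lower of 25 tested, or 36% where 4.94% of all tested genes passed (2.97% higher and 1.97% lower). The 3 with the smallest adjusted p were CDKN1A, PDGFB and NEDD9. PDGFB, a growth factor subunit, read 277, 222 and 238 in DMSO and 859, 838 and 1264 in CA4 (log2 fold change 1.98, SE 0.18, limma adjusted p = 0.0040). NEDD9, a scaffold of focal adhesions, read 880, 525 and 524 in DMSO and 1862, 2036 and 2018 in CA4 (log2 fold change 1.66, SE 0.20, limma adjusted p = 0.00995). CDKN1A had a log2 fold change of 1.15 and an SE of 0.08 (limma's adjusted p = 0.00154). These 3 passed in all 16 alternative analyses. JUNB also rose, by 0.51 (log2, limma adjusted p = 0.0471), and MYC by 0.86 (log2, limma adjusted p = 0.0487). Of the 6 left-out fits, both passed only in that without DMSO replicate 1 (limma adjusted p up to 0.160 and 0.161 in the others), and JUNB did not pass in 4 and MYC in 6 of the 10 alternatives with all libraries. The 3 lower targets were RUNX2, TWIST1 and TSC22D1, and with JUNB and MYC they are named after their values were seen. RUNX2, a bone transcription factor, read 700, 989 and 913 in DMSO and 226, 476 and 275 in CA4 (log2 fold change -1.47, SE 0.27, limma adjusted p = 0.0291). TWIST1, a transcription factor of mesenchymal cells, read 212, 194 and 222 in DMSO and 114, 128 and 116 in CA4 (log2 fold change -0.80, SE 0.15, limma adjusted p = 0.0274). Without 1 library, RUNX2 lost its call in 4 of 6 fits, and TWIST1 and TSC22D1 in 5 of 6 each. ATOH8 read 797, 1854 and 1169 in DMSO and 216, 638 and 366 in CA4, without overlap, and did not pass (log2 fold change -1.70, SE 0.42, limma adjusted p = 0.0643). ATOH8 passed in 2 of the 10 alternatives with all libraries, DESeq2 (-1.65, adjusted p = 0.0314) and limma with a replicate block (adjusted p = 7.2e-04). It also passed in 2 of the 6 limma fits without a library, DMSO replicate 1 (adjusted p = 0.0441) and CA4 replicate 2 (adjusted p = 0.0434). With 1 library left out, the called genes of this second list are given with the share of all genes called. They were 3 without DMSO replicate 2 (0.718%), DMSO replicate 3 (0.582%) or CA4 replicate 1 (1.12%), and 5 without CA4 replicate 3 (1.08%). There were 10 without CA4 replicate 2 (3.61%) and 13 without DMSO replicate 1 (7.14%). Scaling to the same total gave 5 higher and 6 lower (5.76%). Many genes of this target list are also known targets of other pathways.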

How the data were processed

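Gene expression was measured in 6 polyA libraries, 3 CA4 and 3 DMSO, grouped by their titles. The submitters' processing notes name Trim Galore 0.6.6, FastQC 0.12.1, STAR 2.7.9a, Salmon 1.8.0, DESeq2 1.44.0 and GRCh38, without roles; the annotation release and use of strand are not given in the sources used here. The deposited values are a signal, the authors' gene counts divided by 1 factor per library (called normalized counts). Every column (100% of values, tolerance 0.01) could be divided by a single step into whole reads, possibly rounded estimates. Symbols came from the supplied table (35803 of 38900 IDs) and GENCODE 29 (29 IDs).

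Genes averaging 10 or more normalized counts were tested on log2(normalized count + 1) with limma 3.58.1 in R 4.3.3 (treatment only, variance trend, two-sided, Benjamini-Hochberg over all tested genes, threshold 0.05). A pseudocount of 1 understates changes of low genes. SDs are over 3 libraries. Alternatives used pseudocounts of 0.1 and 5, no filter, a mean of at least 50, quantile or total scaling, no trend, a replicate block, edgeR 4.0.16 (quasi-likelihood, TMM) and DESeq2 1.42.0 on recovered reads, and each library left out. The scripts were tested on simulated data. The members, both gene lists and the marker lists were chosen with earlier results of these data known. All members are named; values per library are given for those past the threshold or with no overlap and a log2 fold change of at least 0.5 in size, and for others where a role needs them. From the second list, the called genes with the smallest adjusted p of each role are named, up to 3. Counting error alone limits a value of 0 to 3 reads. One gene of the second list is not reported here by name.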

Additional observations from a re-analysis of the deposited data

How the results depend on the processing

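The 9 called members kept their direction in all 16 alternatives, and all values here are limma's unless another tool is named. Against 9 members (6 higher, 3 lower), 688 genes (413 higher, 275 lower) and 11 other pathway genes (8 higher, 3 lower), the counts moved by over 1.5 times as follows. Without the filter, 5 other pathway genes were higher. With a mean of at least 50, 5 members were lower. Quantile normalization gave 3 higher members and 5 higher other pathway genes. The same total per library gave 6 lower members, 523 lower genes, and 5 higher and 6 lower other pathway genes. Without the variance trend there were 1 member (1 higher, 0 lower), 103 genes (51 higher, 52 lower) and 4 other pathway genes (3 higher, 1 lower). DESeq2 gave 6 lower members, 1613 genes (907 higher, 706 lower) and 24 other pathway genes (15 higher, 9 lower). With a replicate block, 19 members (8 higher, 11 lower), 2397 genes (1260 higher, 1137 lower) and 31 other pathway genes (18 higher, 13 lower) passed. Those members were the 9 of the main fit with BMP6, TGFBR2, BAMBI, CHRDL1, FST, SMAD9, SMAD6, SMURF1, SKI and SKIL. The correlations of deviations of same-numbered libraries were 0.20, 0.16 and 0.06. These positive values cannot settle whether the replicate numbers pair the libraries. The main fit had no block because the labels state none.

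With 1 library left out, the counts ran from 1 to 9 members (1 to 4 higher, 0 to 5 lower), 81 to 994 genes (50 to 605 higher, 31 to 389 lower) and 3 to 13 other pathway genes (3 to 8 higher, 0 to 5 lower). Such fits have fewer samples.

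Among the members, changes of sign were seen in uncalled ones, of which BMP2 (0.32 with all libraries) and TGFBR3 (-0.32) were not near 0 on the log2 scale. Under other scalings they were LTBP1 (-0.0063), LTBP2 (-0.00054) and SMAD5 (-0.047) with quantile normalization, and ACVR1B (-0.048), LTBP1 (-0.0040) and SMAD5 (-0.096) with the same total. With 1 library left out, the values ran from -0.0052 to 0.588 for BMP2, -0.216 to 0.038 (also 0.0065) for GDF6, -0.068 (also -0.053) to 0.167 for ACVR1B, -0.230 to 0.0067 for BMPR2, -0.884 to 0.042 for TGFBR3, -0.011 to 0.152 for LTBP1, -0.276 to 0.022 for SMAD4 and -0.097 (also -0.070) to 0.083 for SMAD5. The cause of these shifts was not tested. GDF5 was left out by the minimum mean of 10, and ID4 had no read.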
